A study of Mus musculus with 6 samples.

Results

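Kinesins and cytoplasmic dynein are the motors that carry cargo along microtubules, and their mRNAs were followed here in RNA immunoprecipitation sequencing (RIP-seq) libraries of mouse cerebellar granule cells (GCs). The genes were chosen by name, from the protein-coding genes of the mouse GENCODE annotation (GRCm38). Their symbols begin with Kif or Klc followed directly by a digit, or with Dync1, Dync2 or Dynl. There were 59 of them among the 52550 gene IDs of the table, 39 with Kif names, 4 with Klc names, 7 with Dync names and 9 with Dynl names. Of the 59, 45 reached a mean of 1 FPKM (sequenced fragments per kilobase of a gene's transcript and per library total) over the 6 libraries and were tested, among 11057 tested genes in all. The other 14 were too low to test, and Kif12 and Kif2b stood at 0 in every library. Kif1bp entered by its name only, since it encodes an inhibitor of kinesins and no motor.

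GCs are the most numerous neurons of the cerebellum and were taken from wildtype C57BL/6 mice at postnatal day 8. No gene was altered in any group. The cell lysate was sequenced as such (input, 2 libraries) or after pull-down with an antibody against YTHDF1 (anti-YTHDF1 RIP, 2 libraries) or YTHDF2 (anti-YTHDF2 RIP, 2 libraries), both of them cytoplasmic readers of N6-methyladenosine (m6A) in mRNA. The comparison asked which mRNAs are recovered with each reader. No pull-down with an unspecific antibody was analysed here. Nothing in the labels ties the replicates to separate animals, so every p-value is set against a spread between libraries that may be technical only.

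Kinesins move mostly toward the growing ends of microtubules, which point to the axon tip in neurons, and cytoplasmic dynein moves the other way, back to the soma. Both are assembled from long chains that hold the motor domain and shorter chains that hold cargo or regulate the motor. Other kinesins build the mitotic spindle, which matters in a postnatal cerebellum where GC precursors still divide, and others shorten microtubules or serve cilia. In the following, the kinesin motor subunits and dynein heavy chains are called long motor chains (40 genes, 29 tested), and the Klc and Dynl products short light chains (13 genes, 11 tested).

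The libraries differed in more than the antibody. Between 9503 and 12627 genes reached 1 FPKM in a library, replicates correlated across genes at 0.949 in input, 0.798 in the anti-YTHDF1 RIP and 0.823 in the anti-YTHDF2 RIP (Pearson's r, in which genes are no independent replicates), and nuclear protein-coding genes held 7.71% of the summed FPKM in the lowest library (input replicate 1) and 18.9% in the highest (YTHDF2 RIP replicate 2). The motor genes together held 0.446% to 0.663% of the nuclear coding sum. The summed markers of GCs were well above 0, and so were those of Purkinje cells, glia, vessels and blood. In input the sums were 99.7 and 120.9 FPKM for Purkinje cells and 18.85 and 24.27 FPKM for vessels. Single markers were lower, such as the GC marker Etv1 (0.707 and 0.987 FPKM in input) and the vessel marker Pecam1 (0.988 and 1.51 FPKM). The late GC marker Gabra6 was low, at 0 and 0.670 FPKM in the input libraries. The summed level of 10 GC markers was 344 to 466 FPKM in input, 317 to 538 in the anti-YTHDF1 RIP and 686 to 813 in the anti-YTHDF2 RIP. In bulk libraries such sums do not count cells, and the cause of their differences between input and RIP was not tested.

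All changes below are differences of log2(FPKM + 1), on which low genes appear to change less than they do. The median change of all tested genes was 0.05 in the anti-YTHDF1 RIP and 0.26 in the anti-YTHDF2 RIP, and group medians are set beside it. Against input, 0 motor genes were higher and 1 was lower in the anti-YTHDF1 RIP by limma at an adjusted p under 0.05, where 0.624% of all tested genes were called higher and 1.94% lower. The counts without adjustment of p were 0 and 11, where 1455 and 1498 of all 11057 tested genes were higher and lower. In the anti-YTHDF2 RIP 0 were higher and 4 lower, against backgrounds of 11.9% and 6.66%. Without adjustment the counts were 7 and 13, where 2649 and 1499 of all 11057 tested genes were higher and lower. The calls rested on few libraries. Those of motor genes, like those of all tested genes, changed in number when single libraries were left out. The motor gene calls were lost without either input library, and the anti-YTHDF1 call also without either of its own replicates. With the replicate number as a block in the fit, 0 were higher and 5 lower in the anti-YTHDF1 RIP (backgrounds 5.16% and 7.79%), and 4 were higher and 9 lower in the anti-YTHDF2 RIP (backgrounds 19.7% and 10.6%). With a GC and length correction added to the block, 0 were higher in either RIP, 1 was lower in the anti-YTHDF1 RIP and 8 in the anti-YTHDF2 RIP. Of all 11041 genes in that fit, 365 were higher and 431 lower in the anti-YTHDF1 RIP. In the anti-YTHDF2 RIP 1655 were higher and 621 lower.

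**Figure D1:**
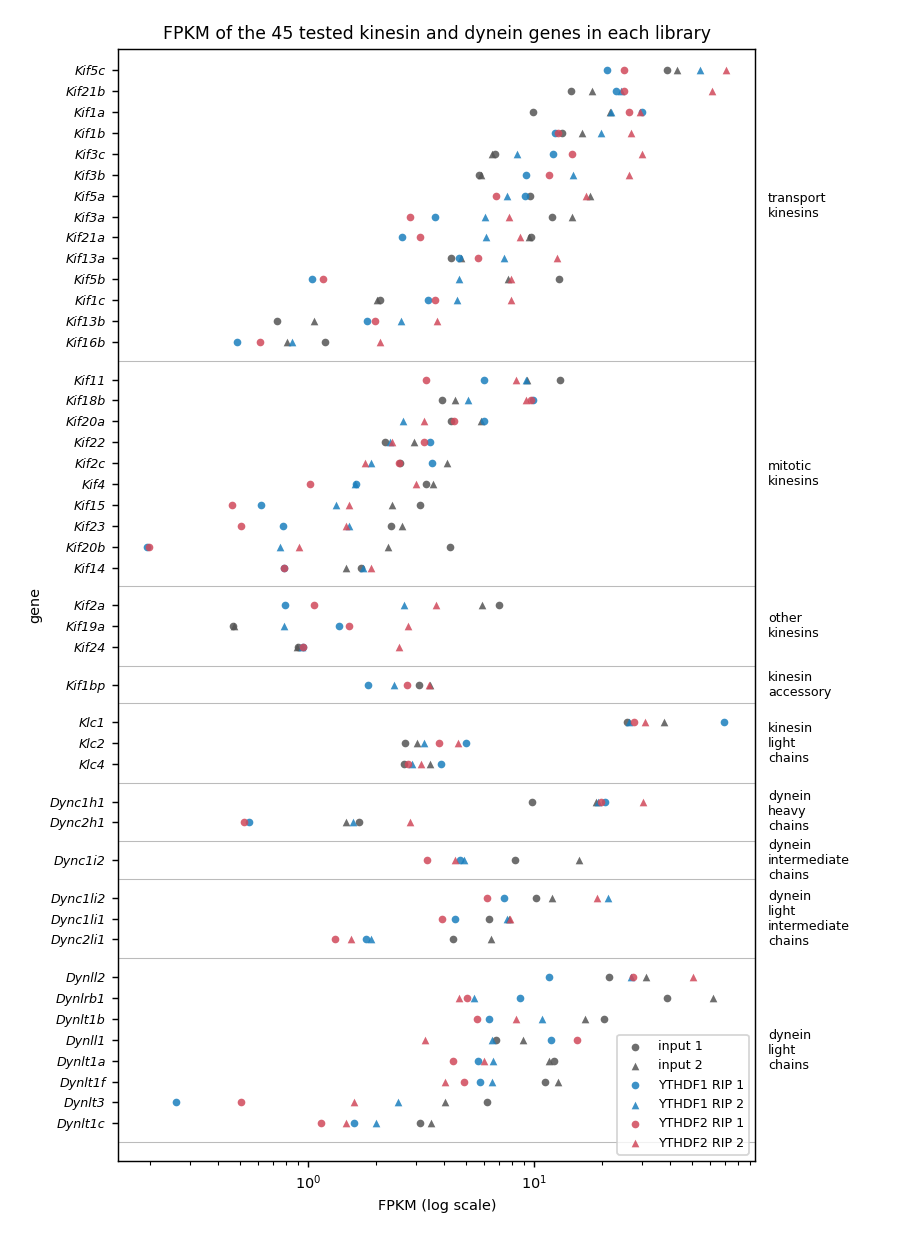
FPKM on a log axis (horizontal) of the 45 tested motor genes, 1 row per gene, grouped by role and ordered by mean level within a role. Circles are replicate 1 and triangles replicate 2 of input (grey), YTHDF1 RIP (blue) and YTHDF2 RIP (red). Dynlrb1 is the highest dynein light chain in both input libraries (38.7 and 61.7 FPKM) and lies at 4.64 to 8.69 FPKM in the RIP libraries.

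The study called an mRNA enriched when its FPKM in a RIP was over 2 times that in input. Taken between group means, that ratio was passed by 3 motor genes in the anti-YTHDF1 RIP (Kif13b, Kif19a and Kif3b), while 23.3% of all tested genes passed it. In the anti-YTHDF2 RIP it was passed by 8 (Kif13a, Kif13b, Kif18b, Kif19a, Kif1c, Kif21b, Kif3b and Kif3c), beside 34.5% of all tested genes. These genes all encode motor subunits. Of all tested genes 2579 and 3812 passed the ratio taken so, far more than the mRNAs the study listed for each antibody. Passing it here thus does not place a gene on the study's lists. A ratio below 0.5 was found for 13 motor genes in the anti-YTHDF1 RIP (background 19.1%) and 14 in the anti-YTHDF2 RIP (background 16.9%). Both RIP libraries lay above both input libraries for 11 motor genes in the anti-YTHDF1 RIP (background 33.8%) and 12 in the anti-YTHDF2 RIP (background 41.5%), and below them for 19 (background 30.2%) and 17 (background 24.9%). As shares of the 45, 6.67% and 17.8% were over 2, and 28.9% and 31.1% were under 0.5. Kif13b, Kif19a and Kif24, counted among those above input, had input means of 0.891, 0.467 and 0.897 FPKM. They were thus tested only because of their RIP values.

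Of the 15 transport kinesins 14 were tested, and none passed the test in either RIP. Their median change was 0.21 in the anti-YTHDF1 RIP and 0.56 in the anti-YTHDF2 RIP, 0.16 and 0.30 above the median of all genes, with a range from -1.69 to 0.90 and from -1.32 to 1.53. This position relative to all genes turned below 0 in both RIPs with the stricter filter or with a GC and length correction, and in the anti-YTHDF1 RIP also without its replicate 2. The group was thus spread over both directions, and closely related kinesins lay on opposite sides.

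The kinesin-2 genes showed this most clearly. Kif3a and Kif3b encode the motor chains of heterotrimeric kinesin-2, which pair with each other and with an accessory subunit, and Kif3c is an alternative partner of Kif3a in neurons. Their sequences around the ATP-binding loop are shown because the family is recognized by it, and because reads of the 3 genes must be told apart. Capitals mark the codons of the loop, found by a pattern search in the translated coding sequence of GENCODE's principal transcripts (GRCm38), and each line gives 60 coding bases.
Kif3a (chr11:53567379-53601967, plus strand): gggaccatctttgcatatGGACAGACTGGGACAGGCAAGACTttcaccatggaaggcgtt
Kif3b (chr2:153291413-153333390, plus strand): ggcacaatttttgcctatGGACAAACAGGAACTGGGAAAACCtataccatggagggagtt
Kif3c (chr12:3365132-3406494, plus strand): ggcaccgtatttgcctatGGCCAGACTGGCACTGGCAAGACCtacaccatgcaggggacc
Each of the 3 pairs differed at 15 of the 60 bases. No stretch of 50 bases was shared between the principal transcripts of these genes, so reads of that length could be assigned among the motor genes.

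Kif3a stood at 11.9 and 14.6 FPKM in input replicates 1 and 2, at 3.65 and 6.07 FPKM in the anti-YTHDF1 RIP and at 2.83 and 7.72 FPKM in the anti-YTHDF2 RIP. Kif3b stood at 5.72 and 5.83 FPKM in input, at 9.16 and 14.8 FPKM in the anti-YTHDF1 RIP and at 11.6 and 26.3 FPKM in the anti-YTHDF2 RIP. Kif3c stood at 6.72 and 6.50 FPKM in input, at 12.1 and 8.41 FPKM in the anti-YTHDF1 RIP and at 14.7 and 29.9 FPKM in the anti-YTHDF2 RIP. Every RIP library was thus below both input libraries for Kif3a and above them for Kif3b and Kif3c. The changes were -1.31 (SE 0.48) and -1.30 (SE 0.48) for Kif3a, 0.90 (SE 0.48) and 1.45 (SE 0.48) for Kif3b and 0.54 (SE 0.45) and 1.53 (SE 0.45) for Kif3c in the anti-YTHDF1 and anti-YTHDF2 RIP. None passed in the fit without the block, where the lowest adjusted p by limma was 0.054 (Kif3c, anti-YTHDF2 RIP). With the block, Kif3a was lower (adjusted p = 0.034) and Kif3b (adjusted p = 0.029) and Kif3c (adjusted p = 0.029) were higher in the anti-YTHDF2 RIP by limma. With the GC and length correction added, Kif3a stayed lower (change -1.19, adjusted p = 0.034), and Kif3b (change 0.93, adjusted p = 0.099) and Kif3c (change 0.71, adjusted p = 0.24) did not pass.

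A ratio of genes within a library does not depend on how libraries are scaled. The ratios given here were chosen after the values were seen, as 5 of 11 computed, and carry no test. Of the others, Kif5a to Kif5b (0.740 and 2.30 in input, 1.62 to 8.74 in the RIP libraries) and Kif1a to Kif1b (0.745 and 1.33 in input, 1.10 to 2.42 in the RIP libraries) overlapped between groups. Kif3b to Kif3a was 0.479 and 0.399 in input, 2.51 and 2.44 in the anti-YTHDF1 RIP and 4.12 and 3.41 in the anti-YTHDF2 RIP, so that the lowest RIP library was 5.09 times the highest input library. Kif3c to Kif3a was 0.562 and 0.445 in input, 3.31 and 1.39 in the anti-YTHDF1 RIP and 5.21 and 3.88 in the anti-YTHDF2 RIP. Kif3b mRNA was the scarcer of the obligate partners in input and the more abundant in the RIP libraries.

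Kif21a and Kif21b encode kinesin-4 motors that restrain microtubule growth. Their loop regions are shown beside that of Kif2a, a kinesin that shortens microtubules and is described below, to set the close pair against a distant relative.
Kif21a (chr15:90933276-91049948, minus strand): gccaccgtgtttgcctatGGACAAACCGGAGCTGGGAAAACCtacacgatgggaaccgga
Kif21b (chr1:136131389-136177998, plus strand): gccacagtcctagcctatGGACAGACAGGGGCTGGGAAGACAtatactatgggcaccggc
Kif2a (chr13:106958996-107022126, minus strand): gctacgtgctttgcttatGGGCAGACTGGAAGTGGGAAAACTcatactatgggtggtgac
Kif21a and Kif21b differed at 13 of the 60 bases, and Kif21a and Kif2a at 21. Kif21b, the second most abundant transport kinesin, stood at 14.5 and 17.9 FPKM in input, 23.1 and 24.2 FPKM in the anti-YTHDF1 RIP and 24.9 and 60.9 FPKM in the anti-YTHDF2 RIP. Kif21a stood at 9.69 and 9.51 FPKM in input, 2.60 and 6.14 FPKM in the anti-YTHDF1 RIP and 3.12 and 8.65 FPKM in the anti-YTHDF2 RIP. Kif21b lay above input and Kif21a below it in every RIP library, with changes of 0.52 (SE 0.52) and 1.22 (SE 0.52) for Kif21b and -1.06 (SE 0.52) and -0.75 (SE 0.52) for Kif21a, and neither passed by limma. With the block and a GC and length correction the Kif21b changes turned to -0.41 and -0.04 and Kif21a passed as lower in the anti-YTHDF2 RIP (change -1.11, adjusted p = 0.041), and without YTHDF2 RIP replicate 1 Kif21b passed as higher there (adjusted p = 0.046). The ratio of Kif21b to Kif21a went from 1.50 and 1.89 in input to 8.85 and 3.93 in the anti-YTHDF1 RIP and 7.99 and 7.04 in the anti-YTHDF2 RIP.

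The kinesin-1 heavy chains drive much of the fast transport down the axon. Kif5c, the neuronal heavy chain and the most abundant transport kinesin, stood at 38.7 and 42.7 FPKM in input, 20.9 and 54.1 FPKM in the anti-YTHDF1 RIP and 25.0 and 70.7 FPKM in the anti-YTHDF2 RIP. In both RIPs replicate 1 lay below and replicate 2 above the input libraries, and the changes were -0.26 (SE 0.66) and 0.05 (SE 0.66). Kif5a, also neuronal, stood at 9.54 and 17.7 FPKM in input, 9.08 and 7.56 FPKM in the anti-YTHDF1 RIP and 6.77 and 16.9 FPKM in the anti-YTHDF2 RIP, with overlapping groups in the latter. Its anti-YTHDF2 change was -0.25 and passed as lower only with the block and GC and length correction (change -1.26, adjusted p = 0.043). Kif5b, the heavy chain found in most cell types, stood at 12.9 and 7.69 FPKM in input, 1.04 and 4.67 FPKM in the anti-YTHDF1 RIP and 1.16 and 7.90 FPKM in the anti-YTHDF2 RIP. Its changes of -1.69 (SE 0.74) and -1.32 (SE 0.74) were the lowest among transport kinesins and did not pass by limma (adjusted p = 0.20 and 0.23), with replicate 1 of each RIP far below replicate 2.

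Kinesin-3 motors carry synaptic vesicle precursors and other membranes. Kif1a stood at 9.84 and 21.6 FPKM in input, 29.9 and 21.8 FPKM in the anti-YTHDF1 RIP and 26.3 and 29.2 FPKM in the anti-YTHDF2 RIP (changes 0.76 and 0.88, SE 0.49), and the input libraries differed more from each other than the RIP libraries did. Kif1c, which carries membranes and mRNAs, stood at 2.08 and 2.02 FPKM in input, 3.38 and 4.53 FPKM in the anti-YTHDF1 RIP and 3.65 and 7.90 FPKM in the anti-YTHDF2 RIP. Kif13b stood at 0.726 and 1.06 FPKM in input, 1.81 and 2.58 FPKM in the anti-YTHDF1 RIP and 1.99 and 3.73 FPKM in the anti-YTHDF2 RIP. Its mean in input was 0.891 FPKM, so it passed the filter only through its RIP values. All 3 lay above input in every RIP library, and of these only Kif13b passed with the block (anti-YTHDF2 RIP, change 1.00, adjusted p = 0.039 by limma). With the GC and length correction added the Kif13b change was 0.10 and did not pass (adjusted p = 0.84). The GC and length correction turned the changes of Kif1a (-0.09 and -0.28) and Kif1c (-0.13 and -0.0085). Kif16b, an endosome motor just inside the filter at a mean of 1.00 FPKM, changed by -0.26 and 0.17 (SE 0.37).

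Kinesin light chains link kinesin-1 to its cargo, and 3 of the 4 were tested. Klc1 stood at 25.6 and 37.4 FPKM in input, 68.9 and 26.2 FPKM in the anti-YTHDF1 RIP and 27.7 and 30.8 FPKM in the anti-YTHDF2 RIP. Replicate 1 of the anti-YTHDF1 RIP was high and every other library overlapped with input. The changes were 0.45 and -0.08 (SE 0.56) for Klc1, 0.39 and 0.43 (SE 0.34) for Klc2 and 0.11 and -0.03 (SE 0.32) for Klc4, and none passed. The Klc2 changes turned to -0.49 and -0.51 with the GC and length correction. Kif1bp stood at 3.10 and 3.47 FPKM in input, 1.84 and 2.41 FPKM in the anti-YTHDF1 RIP and 2.75 and 3.44 FPKM in the anti-YTHDF2 RIP, and did not pass.

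Of the 11 mitotic kinesins 10 were tested, and 1 was lower in the anti-YTHDF2 RIP. Their median change was -0.38 in the anti-YTHDF1 RIP and -0.54 in the anti-YTHDF2 RIP, 0.43 and 0.80 below the median of all genes, and 8 of the 10 changes were negative in each. Kif20b, which acts in cytokinesis (chromosome 19, 34922361 to 34975745), stood at 4.22 and 2.25 FPKM in input, 0.194 and 0.751 FPKM in the anti-YTHDF1 RIP and 0.198 and 0.909 FPKM in the anti-YTHDF2 RIP. Every RIP library lay below both input libraries, by 6.85-fold and 5.84-fold between the means. Kif20b was lower in the anti-YTHDF2 RIP (change -1.45, SE 0.39, adjusted p = 0.042 by limma) and had the same direction in the anti-YTHDF1 RIP (change -1.51, adjusted p = 0.075), where it passed with the block (adjusted p = 0.019) and not with the GC and length correction added (adjusted p = 0.056). The anti-YTHDF2 call was close to the threshold and was lost without any 1 library other than YTHDF1 RIP replicate 1 (adjusted p = 0.0505 to 0.281).

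Kif11, the bipolar kinesin that pushes spindle poles apart, stood at 13.1 and 9.29 FPKM in input, 6.01 and 9.16 FPKM in the anti-YTHDF1 RIP and 3.31 and 8.34 FPKM in the anti-YTHDF2 RIP, below input in every RIP library (changes -0.51 and -0.92, SE 0.48). The exceptions were Kif18b and Kif22. Kif18b, which acts at the ends of astral microtubules, stood at 3.93 and 4.45 FPKM in input, 9.83 and 5.09 FPKM in the anti-YTHDF1 RIP and 9.71 and 9.23 FPKM in the anti-YTHDF2 RIP, above input in every RIP library (changes 0.65 and 1.01, SE 0.40). Kif22, a chromosome-binding kinesin, changed by 0.12 and 0.09 (SE 0.34), and Kif20a, which acts in late mitosis, by -0.25 and -0.32 (SE 0.42). Of 8 markers of dividing GC precursors 4 had negative and 4 positive changes in the anti-YTHDF1 RIP, and 5 and 3 in the anti-YTHDF2 RIP, and Ccna2 was lower in each by limma (adjusted p = 0.036 and 0.021). Their summed level was 103 to 138 FPKM in input, 45.1 to 49.8 FPKM in the anti-YTHDF1 RIP and 51.4 to 106.2 FPKM in the anti-YTHDF2 RIP, which overlapped input, and Mki67 made up 68.3 and 35.2 FPKM of it in the input libraries. Their part in the mitotic kinesin values was not tested.

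Of 12 other kinesins 3 were tested. Kif2a, which restrains axon branches by shortening microtubules, stood at 6.97 and 5.89 FPKM in input, 0.786 and 2.64 FPKM in the anti-YTHDF1 RIP and 1.06 and 3.68 FPKM in the anti-YTHDF2 RIP. It was below input in every RIP library, and its changes of -1.54 and -1.26 (SE 0.50) passed with the block (adjusted p = 0.028 and 0.035 by limma). With the GC and length correction added only the anti-YTHDF2 call remained (adjusted p = 0.061 and 0.038). Kif19a, which trims the microtubules of cilia, stood at 0.466 and 0.469 FPKM in input, 1.36 and 0.786 FPKM in the anti-YTHDF1 RIP and 1.51 and 2.77 FPKM in the anti-YTHDF2 RIP. Its mean in input was 0.467 FPKM, so it passed the filter of 1 FPKM only through its RIP values. It was above input in every RIP library and passed in the anti-YTHDF2 RIP with the block (change 1.07, adjusted p = 0.029). With the GC and length correction added, that change was 0.03 and did not pass (adjusted p = 0.97). Kif24, a centriole protein, changed by 0.03 and 0.46 (SE 0.34), and its input mean of 0.897 FPKM was also under the filter.

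The untested genes lay between 0 and the filter. Kif24 (1.19 FPKM) and Kif16b were the nearest above the mean of 1 FPKM, and Kif7 (0.905 FPKM), a Hedgehog pathway kinesin, and Kif26b (0.763 FPKM) the nearest below it. Kif26a, an atypical kinesin, stood at 0.0686 and 0.143 FPKM in input, 0.715 and 0.809 FPKM in the anti-YTHDF1 RIP and 0.985 and 1.80 FPKM in the anti-YTHDF2 RIP. Kif17, a dendritic transport kinesin, stood at 0.0659 and 0.0567 FPKM in input and at 0.207 to 0.307 FPKM in the RIP libraries. Every RIP library lay above input for both. Without the low-value filter neither passed in the anti-YTHDF2 RIP by limma (adjusted p = 0.15 for Kif26a and 0.20 for Kif17). None of the 31996 genes in that fit passed, so the outcome says nothing particular about Kif26a and Kif17.

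Cytoplasmic dynein 1 carries cargo back to the soma, and dynein 2 works inside cilia. The heavy chain of dynein 1, Dync1h1, stood at 9.74 and 18.8 FPKM in input, 20.5 and 19.1 FPKM in the anti-YTHDF1 RIP and 19.8 and 30.3 FPKM in the anti-YTHDF2 RIP. All RIP libraries were above input, by less than the gap between the input libraries in the anti-YTHDF1 RIP, and the changes were 0.51 and 0.81 (SE 0.47). The dynein 2 heavy chain Dync2h1 changed by -0.37 and -0.10 (SE 0.48). Dync1i2, the intermediate chain that binds dynactin, stood at 8.22 and 15.7 FPKM in input, 4.68 and 4.91 FPKM in the anti-YTHDF1 RIP and 3.35 and 4.46 FPKM in the anti-YTHDF2 RIP.

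The Dync1i2 RIP values were all below input, and the changes were -1.10 and -1.35 (SE 0.40), lower in the anti-YTHDF2 RIP with the block (adjusted p = 0.026 by limma), but neither in the fit without it (adjusted p = 0.056) nor with the GC and length correction added (adjusted p = 0.16). Within a library the ratio of Dync1h1 to Dync1i2 was 1.18 and 1.19 in input, 4.38 and 3.90 in the anti-YTHDF1 RIP and 5.92 and 6.80 in the anti-YTHDF2 RIP. The light intermediate chains of dynein 1, which bind cargo adaptors, had changes of -0.22 and -0.28 (Dync1li1, SE 0.43) and 0.18 and -0.01 (Dync1li2, SE 0.64). That of dynein 2, Dync2li1 (chromosome 17, 84626496 to 84655588), stood at 4.39 and 6.44 FPKM in input, 1.80 and 1.89 FPKM in the anti-YTHDF1 RIP and 1.31 and 1.54 FPKM in the anti-YTHDF2 RIP. Its groups did not overlap, and it was lower in the anti-YTHDF2 RIP (change -1.39, SE 0.32, adjusted p = 0.029 by limma), while in the anti-YTHDF1 RIP it passed with the block (change -1.16, adjusted p = 0.046). With the GC and length correction the anti-YTHDF2 change was -0.32 and the call was lost (adjusted p = 0.46), as it was without either YTHDF2 RIP library (adjusted p = 0.054 and 0.056).

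Of the 9 dynein light chains 8 were tested, 1 was lower in the anti-YTHDF1 RIP and 2 in the anti-YTHDF2 RIP. Dynlrb1, a roadblock light chain that binds the intermediate chains, had the lowest changes of all motor genes. Its short coding sequence is shown in full as the member with the clearest difference, and capitals mark GGAC, a form of the m6A consensus searched on the mRNA strand.
Dynlrb1 (chr2:155236533-155250277, plus strand): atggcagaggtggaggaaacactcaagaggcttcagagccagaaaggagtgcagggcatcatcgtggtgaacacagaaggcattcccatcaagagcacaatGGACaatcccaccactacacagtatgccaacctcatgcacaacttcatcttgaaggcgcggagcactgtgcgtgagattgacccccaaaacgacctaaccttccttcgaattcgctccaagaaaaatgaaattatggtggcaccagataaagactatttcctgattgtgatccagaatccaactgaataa
The coding sequence is 291 bases long and holds GGAC at 1 place, and the whole transcript of 684 bases holds it at 2. GGAC is found in all 45 tested motor genes and in 99.5% of all tested protein-coding transcripts, which are of varied length, with a median of 4.36 and 4.15 per 1000 bases. A match is a description of the letters and no sign of methylation.

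Dynlrb1 stood at 38.7 and 61.7 FPKM in input, 8.69 and 5.40 FPKM in the anti-YTHDF1 RIP and 5.04 and 4.64 FPKM in the anti-YTHDF2 RIP. The group means were 50.2 ± 16.3, 7.04 ± 2.33 and 4.84 ± 0.283 FPKM (SD, n = 2 each), and the RIP means were 7.13-fold and 10.4-fold lower than input. It was lower in the anti-YTHDF1 RIP (change -2.66, SE 0.43, adjusted p = 0.036) and in the anti-YTHDF2 RIP (change -3.10, SE 0.43, adjusted p = 0.014) by limma. Both calls were lost without either input library (adjusted p = 0.11 to 0.31), and without the low-value filter (adjusted p = 0.15 and 0.070), and the anti-YTHDF1 call also without either of its own replicates and with the summed FPKM of all libraries set equal (adjusted p = 0.070). With the block and a GC and length correction the changes were -2.07 (adjusted p = 0.0157) and -2.12 (adjusted p = 0.00568). The ratio of Dync1h1 to Dynlrb1 went from 0.252 and 0.304 in input to 2.36 and 3.55 in the anti-YTHDF1 RIP and 3.94 and 6.54 in the anti-YTHDF2 RIP.

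The Tctex-type light chains Dynlt1a, Dynlt1b, Dynlt1c and Dynlt1f are neighboring copies on chromosome 17. The first 60 coding bases are shown because they hold the only position that differs among the copies, in capitals.
Dynlt1a (chr17:6306340-6317500, minus strand): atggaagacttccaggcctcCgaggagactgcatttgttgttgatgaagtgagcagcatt
Dynlt1b (chr17:6430112-6436296, plus strand): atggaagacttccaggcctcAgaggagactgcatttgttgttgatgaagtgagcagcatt
Dynlt1c (chr17:6601671-6609774, plus strand): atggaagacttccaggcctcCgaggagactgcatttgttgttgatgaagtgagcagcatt
Dynlt1f (chr17:6646602-6655900, minus strand): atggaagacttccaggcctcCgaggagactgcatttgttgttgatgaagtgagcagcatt
Of the 342 coding bases 1 differs among the 4 copies, and 93.1% of the 50-base stretches of the Dynlt1f transcript are also in that of Dynlt1c. Among the 1711 pairs of motor genes, the 6 pairs of these copies were the only ones that shared any stretch of 50 bases. Each copy's FPKM depends on how reads common to the copies were shared out, so the copies are uncertain taken singly.

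Dynlt1b stood at 20.3 and 16.8 FPKM in input, 6.29 and 10.8 FPKM in the anti-YTHDF1 RIP and 5.55 and 8.30 FPKM in the anti-YTHDF2 RIP. Dynlt1f stood at 11.2 and 12.7 FPKM in input, 5.75 and 6.49 FPKM in the anti-YTHDF1 RIP and 4.87 and 4.03 FPKM in the anti-YTHDF2 RIP. All 4 copies lay below input in every RIP library. Dynlt1b was lower in the anti-YTHDF2 RIP with the block (change -1.32, adjusted p = 0.041 by limma) and not with the GC and length correction added (adjusted p = 0.60). Dynlt1f was lower in the anti-YTHDF2 RIP (change -1.25, SE 0.34, adjusted p = 0.044 by limma), a call lost without any 1 library other than YTHDF1 RIP replicate 2 and with the GC and length correction (change -0.25, adjusted p = 0.63). Dynlt1a did not pass in the anti-YTHDF2 RIP without the block (change -1.075, adjusted p = 0.071 by limma). With the block and the GC and length correction, however, it passed there as lower. Its annotated transcript is 3321 bases long, against 771 bases for Dynlt1b and Dynlt1f. The medians of the 4 copies were -0.86 and -1.16. Dynlt3, a related light chain from the X chromosome, stood at 6.18 and 4.02 FPKM in input, 0.260 and 2.48 FPKM in the anti-YTHDF1 RIP and 0.507 and 1.59 FPKM in the anti-YTHDF2 RIP, and was lower in both with the block (adjusted p = 0.035 and 0.015) and in neither with the GC and length correction added (adjusted p = 0.51 and 0.41).

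The LC8 light chains stood apart from these. Dynll2, which serves as a hub protein beside its place in dynein, stood at 21.4 and 31.1 FPKM in input, 11.6 and 26.8 FPKM in the anti-YTHDF1 RIP and 27.4 and 50.3 FPKM in the anti-YTHDF2 RIP, with overlapping groups (changes -0.52 and 0.51, SE 0.56). Dynll1 stood at 6.79 and 8.93 FPKM in input, 11.8 and 6.52 FPKM in the anti-YTHDF1 RIP and 15.5 and 3.30 FPKM in the anti-YTHDF2 RIP, with replicate 1 above and replicate 2 below input in each. Its changes of 0.16 and -0.06 (SE 0.64) did not pass. The median change of the 8 dynein light chains was -0.86 and -1.16, 0.91 and 1.42 below that of all genes.

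**Figure D2:**
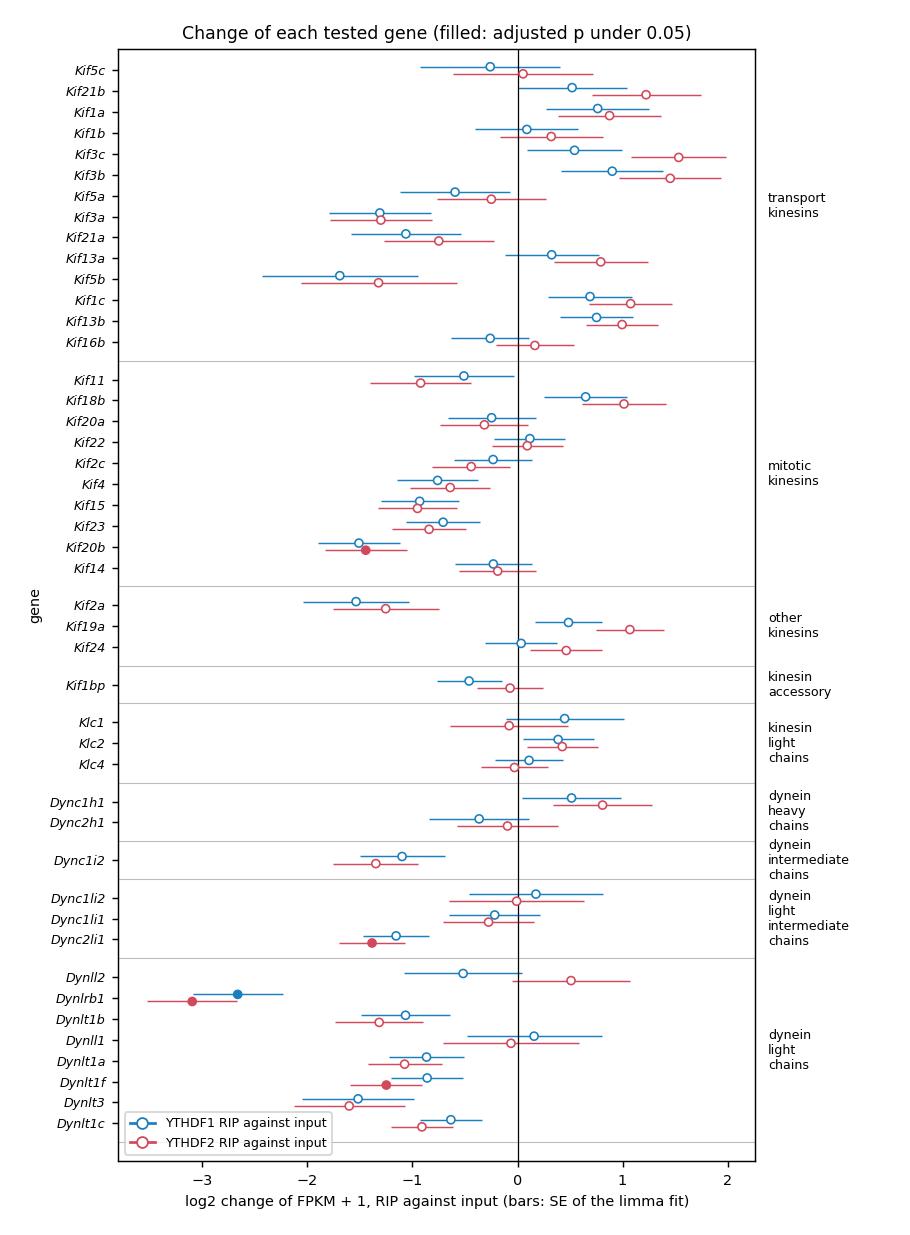
Change of log2(FPKM + 1) against input (horizontal) of the 45 tested motor genes, 1 row per gene grouped by role, in the anti-YTHDF1 RIP (blue) and the anti-YTHDF2 RIP (red). Bars are the SE of the limma fit and filled points passed at an adjusted p under 0.05. Dynlrb1 is filled for both antibodies at -2.66 and -3.10, and Kif20b, Dync2li1 and Dynlt1f for the anti-YTHDF2 RIP.

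Long motor chains were then set against short light chains. The 29 long chains had a median change of -0.23 in the anti-YTHDF1 RIP and 0.05 in the anti-YTHDF2 RIP, and the 11 light chains -0.63 and -0.91, a difference of 0.40 and 0.96. Within each library, the median log2(FPKM + 1) of the long chains lay 1.21 and 1.14 below that of the light chains in input, 0.59 and 0.44 below in the anti-YTHDF1 RIP, and 0.51 below in replicate 1 and 0.63 above in replicate 2 of the anti-YTHDF2 RIP. The RIP libraries thus all had a smaller gap than input, and only YTHDF2 RIP replicate 2 had the long chains on top.

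The difference moved with the near-identical copies. With the 4 Dynlt1 copies counted as 1 gene, which was chosen after the values were seen, the light chains were 8, their medians were -0.20 and -0.07, and the difference was -0.03 in the anti-YTHDF1 RIP and 0.12 in the anti-YTHDF2 RIP. The difference was also 0.13 and 0.11 with the block and a GC and length correction. Light chains were no uniform group: the kinesin light chains had medians of 0.39 and -0.03, and the dynein light chains -0.86 and -1.16. Their coding sequences are 1851 to 1860 bases and 270 to 351 bases long, and their transcripts' median GC content is 59.1% and 49.7%.

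**Figure D3:**
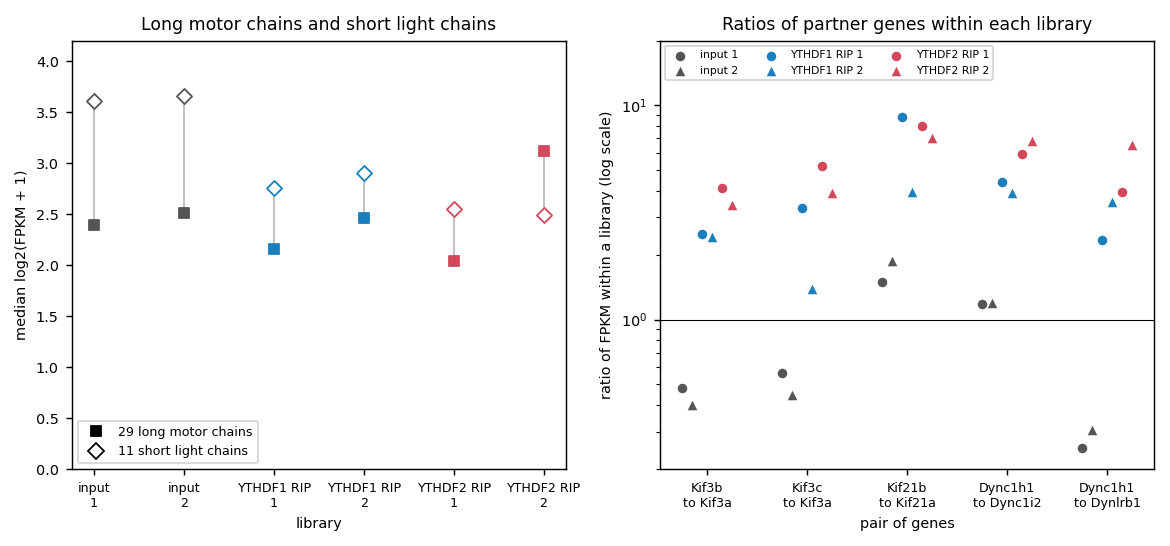
Left, median log2(FPKM + 1) per library of the 29 long motor chains (filled squares) and the 11 short light chains (open diamonds), joined by a line. Right, ratio of FPKM on a log axis for 5 pairs of genes, chosen after the values were seen, within each library, circles for replicate 1 and triangles for replicate 2, with a line at 1. For each pair every RIP library lies above both input libraries, as for Kif3b to Kif3a with 0.399 to 0.479 in input and 2.44 to 4.12 in the RIP libraries.

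The changes of the motor genes ran with the base composition of their transcripts. Across the 45 tested genes, which share the libraries, the change correlated with GC content at a Spearman's rho of 0.68 in the anti-YTHDF1 RIP and 0.67 in the anti-YTHDF2 RIP (Pearson's r 0.66 and 0.61), and across the 29 long chains at 0.78 in both (Pearson's r 0.80 and 0.79). Across 9815 tested protein-coding genes rho was 0.56 and 0.40, so the relation was not limited to motors. The 22 motor genes below the median GC content of 49.7% had median changes of -0.73 and -0.80, with 3 positive in each RIP, and the 23 at or above it 0.12 and 0.43, with 15 and 14 positive. Kif2a (38.6%), Kif20b (39.4%) and Kif5b (41.1%) are the tested long chains with the lowest GC content and among those with the lowest changes. Spearman correlations with transcript length were 0.37 and 0.48 over the motor genes, and with GGAC per 1000 bases 0.40 and 0.46. Over the 9815 protein-coding genes they were 0.19 and 0.37 for length and 0.38 and 0.27 for GGAC.

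Kif3b, Kif3a and Dynlrb1 were among the genes outside the quartiles of other genes of like GC content. Kif3b has a GC content of 49.1% and Kif3a of 47.6%, and the median change of protein-coding genes near these values (deciles with median GC 49.5% and 47.7%) was 0.00 and -0.12 in the anti-YTHDF1 RIP and 0.24 and 0.08 in the anti-YTHDF2 RIP. Dynlrb1 has 50.1%, and its changes were the lowest in the plot of change against GC content. The part of GC content in the changes of single genes was not tested.

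**Figure D4:**
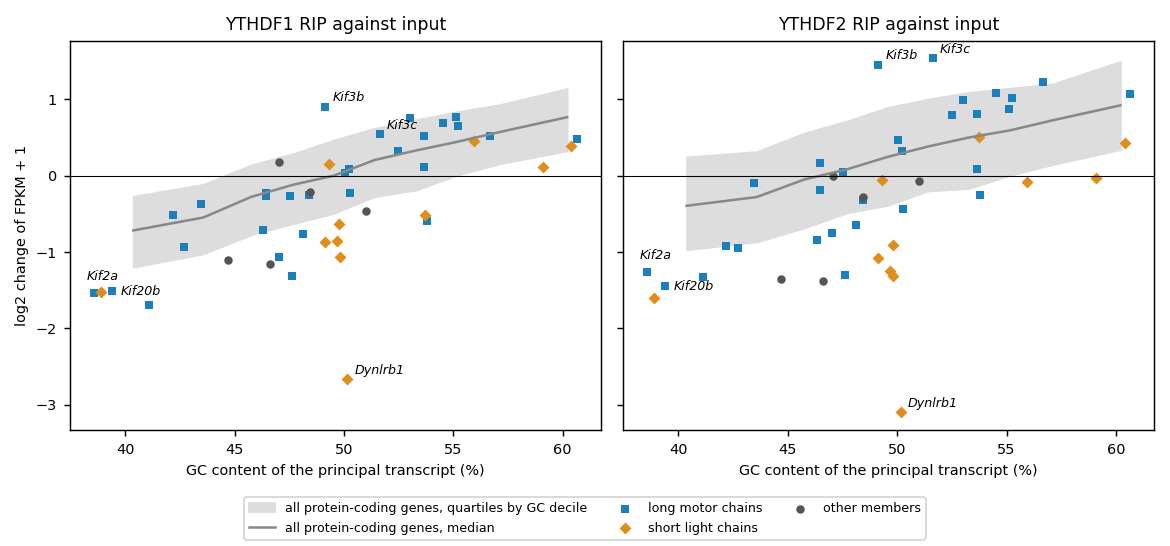
Change of log2(FPKM + 1) against input (vertical) by GC content of the principal transcript (horizontal, percent) for the tested motor genes in the anti-YTHDF1 RIP (left) and the anti-YTHDF2 RIP (right). Squares are long motor chains, diamonds short light chains and circles other motor genes, and the grey line and band are the median and quartiles of all tested protein-coding genes by GC decile. Changes are mostly higher at higher GC content, from Kif2a at 38.6% upward, with Kif3b above and Kif3a and Dynlrb1 below the band.

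The antibodies were compared directly as well. In the anti-YTHDF2 RIP against the anti-YTHDF1 RIP 0 of the 45 motor genes passed in either direction by limma, where 0.00904% of all tested genes passed. Without adjustment of p the count of motor genes was also 0, where 391 of all 11057 tested genes were higher and 86 lower. The differences ran from -0.53 (Klc1, SE 0.56) to 1.03 (Dynll2, SE 0.56), with a median over all genes of 0.22. Positive were 23 of the 29 long chains and 2 of the 11 light chains, beside 7729 of all 11057 tested genes. With the Dynlt1 copies as 1 gene, 2 of 8 light chains were positive. Median differences were 0.28 for long chains and -0.22 for light chains. With SEs of this size a moderate difference between the readers was not detectable.

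Partners of the motors were counted from lists of known components. Of 12 dynactin subunits, the complex that dynein needs to move, 12 were tested, 1 was higher and 1 lower in the anti-YTHDF2 RIP and none passed in the anti-YTHDF1 RIP. Of all tested genes 11.9% were higher and 6.66% lower in the anti-YTHDF2 RIP, and the counts of this list and the next ones are to be read against these shares. Actr1a, which forms the dynactin filament, went from 18.6 and 20.5 FPKM in input to 71.0 and 48.8 in the anti-YTHDF1 RIP and 91.0 and 85.8 in the anti-YTHDF2 RIP (change 2.12, SE 0.46, adjusted p = 0.025 by limma), and Dctn3 fell (change -1.30, adjusted p = 0.045). The dynactin median was -0.34 and -0.40. Of 13 kinesin adaptors and partners 2 were higher in the anti-YTHDF2 RIP, the mitochondrial adaptor Trak1 (1.87, adjusted p = 0.031) and Madd (2.00, adjusted p = 0.027), which links kinesin-3 to vesicles, with list medians of 0.66 and 0.82.

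Of 10 tested dynein regulators and adaptors, Rab11fip3 was higher in the anti-YTHDF2 RIP (1.85, adjusted p = 0.019 by limma). Among 4 tested kinesins outside the name rule, Kifc1, a minus-end motor of the spindle with a close copy in Kifc5b, was higher there (1.53, adjusted p = 0.033). Of 19 tested microtubule-associated genes 1 was higher and 2 were lower in the anti-YTHDF2 RIP. The plus-end protein Clip2 was higher (2.11, adjusted p = 0.037), and the microtubule destabilizers Stmn1 (-2.58, adjusted p = 0.031) and Stmn2 (-1.70, adjusted p = 0.026) were lower. None of these lists had a call in the anti-YTHDF1 RIP. All calls of the partner lists are from the fit without the block, and how they held under the alternatives is not given here. Without the low-value filter no gene passed in either RIP, so these calls were lost there too. GC content was 53.6% to 60.3% in the partner genes called higher and 46.1% to 54.8% in those called lower. The part of GC content in these calls was not tested.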

How the data were processed

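Lysates of GCs were passed over magnetic beads coated with antibody, and the bound RNA and the input were sequenced. The deposited table holds 1 FPKM value per gene and library, made by the authors without pooling of replicates. The study's methods name STAR and Cufflinks on GRCm38, the submitters' notes Bowtie 0.12.2, mm8 and mm9, and which made the table is not settled. The kit labels name stranded and unstranded preparation, so genes that overlap others are uncertain. FPKM divides by the library total, so RNA lost from a RIP library raises all other genes in it. The files give no read counts: the FPKM of 1 fragment on 1000 bases was estimated at 0.0200 to 0.0535, but only 34.6% to 44.0% of low values lay within 0.1 of a whole multiple (20% by chance), so no count test was run.

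Names, coordinates, lengths, GC content and sequences came from GENCODE mouse release 21 (principal transcripts). limma 3.58.1 (R 4.3.3) was fitted to log2(FPKM + 1) of the 11057 genes whose mean reached 1 FPKM, with 6 libraries in 3 groups, 3 residual degrees of freedom and an intensity trend. Tests were 2-sided with Benjamini-Hochberg adjustment over all tested genes at 0.05. The fit was tried on simulated independent values, with changes larger than nearly all of those seen in the motor genes. That trial does not measure how well the fit works on these data. The series' design text states that each of 2 replicates holds input and RIP samples, so numbers were taken to pair libraries. Deviations of same-numbered libraries from their group means correlated at 0.68 between the RIPs and at -0.14 between input and either RIP.

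The genes, role groups and lists were chosen with earlier results of these data known. Named were the members past the threshold, the 3 most abundant of each role, those with the sign opposite to their role's median in both RIPs and those beside the filter. Kif3b, Kif3c, Kif1c, Kif13a, Kif13b, Dynll1 and Dynlt3 and the low genes Kif26a and Kif17 were added after their values were seen. So was the anti-YTHDF2 result of Dynlt1a, which is not among the named changes counted below. Alternatives were a pseudocount of 0.1, no filter or a mean of 5 FPKM, 3 other scalings, the block with or without GC and length correction, 2 groups only, no trend and leaving out each library.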

Additional observations from a re-analysis of the deposited data

How the results depend on the processing

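Of the 74 changes of named motor genes, 35 kept their sign under all alternatives tried and 39 turned under 1 or more. None of the 39 passed with the turned sign, and in the anti-YTHDF2 RIP Kif5a, Kif1c and Kif21b each turned under 1 or more alternatives and passed with their original sign under another. The scaling moved the median of all genes from 0.05 and 0.26 to 0.49 and 0.79 (TPM-like, summed FPKM set equal), 0.04 and 0.01 (median of ratios) and 0.09 and 0.10 (nuclear coding genes), the first value for the anti-YTHDF1 RIP and the second for the anti-YTHDF2 RIP.

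Motor genes lower in the anti-YTHDF1 RIP (1) became 0 without the filter or with TPM-like scaling, 2 with median of ratios and 5 with the replicate block, and varied without single libraries. With TPM-like scaling none of all 11057 tested genes was called in the anti-YTHDF1 RIP. Motor genes higher in the anti-YTHDF2 RIP (0) became 3 with TPM-like scaling, 1 each with the stricter filter, nuclear coding scaling and no trend, 4 with the replicate block and 0 to 6 without single libraries. Motor genes lower in the anti-YTHDF2 RIP (4) became 0 without the filter, 1 with TPM-like scaling, 13 with median of ratios and 9 with nuclear coding scaling. They became 9 with the replicate block and 8 with the block and GC and length correction, and varied without single libraries. Without the filter 31996 genes were tested and none was called, against 1815 higher and 2107 lower in the anti-YTHDF1 RIP and 3457 and 2101 in the anti-YTHDF2 RIP without adjustment. With input numbers exchanged in the block, chosen after seeing the data, the counts were 8 lower in the anti-YTHDF1 RIP and 5 higher and 13 lower in the anti-YTHDF2 RIP. Of all 11057 tested genes, 1266 were lower and 2561 higher and 1446 lower in that order. With median of ratios 501 of them were lower in the anti-YTHDF1 RIP and 1143 in the anti-YTHDF2 RIP. In the anti-YTHDF2 RIP 2271 were higher and 225 lower with TPM-like scaling, and 1191 and 1064 with nuclear coding scaling.

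The difference of long and light chains in the anti-YTHDF1 RIP (0.40) was 0.55 with a pseudocount of 0.1, 0.53 without the filter, 1.07 with the stricter filter, 0.13 with the block and GC and length correction, -0.028 with the Dynlt1 copies as 1 gene (chosen after seeing the data) and 0.40 to 0.70 without single libraries. In the anti-YTHDF2 RIP (0.96) it was 0.11 with the block and correction, 0.12 with the copies as 1 gene and 0.74 to 1.45 without single libraries. Between the antibodies (0.50) it was 0.26 to 0.80 without single libraries.

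With TPM-like scaling the changes that turned were, in the anti-YTHDF1 RIP, Dync1li1 0.29, Dynll2 0.025, Kif11 0.0024, Kif16b 0.0051, Kif20a 0.21 and Kif5c 0.29, and in the anti-YTHDF2 RIP Dync1li1 0.31, Dync1li2 0.61, Dync2h1 0.33, Dynll1 0.51, Kif1bp 0.47, Kif20a 0.23, Kif5a 0.37, Klc1 0.57 and Klc4 0.51. In the anti-YTHDF2 RIP Kif16b turned to -0.058, Kif22 to -0.12 and Kif5c to -0.28 with median of ratios, and Kif22 to -0.049 and Kif5c to -0.16 with nuclear coding scaling. With the block and GC and length correction those that turned were, in the anti-YTHDF1 RIP, Dync1li1 0.018, Dync2h1 0.075, Kif13a -0.32, Kif19a -0.47, Kif1a -0.085, Kif1c -0.13, Kif21b -0.41, Kif24 -0.35, Kif3c -0.018, Klc2 -0.49 and Klc4 -0.44, and in the anti-YTHDF2 RIP Dync1h1 -0.10, Dynll1 0.40, Kif13a -0.12, Kif16b -0.15, Kif1a -0.28, Kif1bp 0.0039, Kif1c -0.0085, Kif21b -0.043, Kif24 -0.14, Kif5c -0.38 and Klc2 -0.51.

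Without single libraries the changes that turned ranged, in the anti-YTHDF1 RIP, from -0.54 to 0.11 for Dync1li1, -0.53 to 0.88 for Dync1li2, -0.74 to 0.0061 for Dync2h1, -0.23 to 0.54 for Dynll1, -1.09 to 0.053 for Dynll2, -0.72 to 0.23 for Kif20a, -0.10 to 0.34 for Kif22, -0.92 to 0.41 for Kif5c, -0.23 to 1.13 for Klc1 and -0.054 to 0.27 for Klc4. In the anti-YTHDF2 RIP they ranged from -0.70 to 0.14 for Dync1li1, -0.74 to 0.73 for Dync1li2, -0.76 to 0.57 for Dync2h1, -1.03 to 0.91 for Dynll1, -0.30 to 0.63 for Kif16b, -0.19 to 0.051 for Kif1bp, -0.08 to 0.27 for Kif22, -0.85 to 0.35 for Kif5a, -0.68 to 0.78 for Kif5c, -0.34 to 0.18 for Klc1 and -0.17 to 0.12 for Klc4. The causes of these shifts were not tested. A group left with 1 library was assumed to vary like the others.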
